A study of Mus musculus with 6 samples.

Results

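Lysosomes are the acidic organelles in which macrophages break down proteins, sugars, lipids and engulfed microbes. The 41 lysosomal genes described here were listed by name: 11 proteases, 15 glycosidases and sulfatases, 8 lipid-handling proteins and 7 membrane proteins, out of 54532 genes in the expression table. RNA was sequenced from primary macrophages of METRNL+/+ (WT) mice and METRNL-/- (KO) mice, with 3 libraries per genotype. METRNL is meteorin-like, a secreted protein. After culture, the cells of both genotypes were exposed to the yeast Candida albicans in vitro for 6 hours, so neither group is unchallenged. Deposited values were FPKM, fragments per kilobase of gene with a scaling for each library. They are per length and so allow levels of different genes to be set side by side.

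The labels do not say which macrophages were taken, how the METRNL allele was made, or whether the libraries came from separate animals or cultures. The p-values therefore measure the spread between libraries, which may be technical. The extraction text speaks of retinas, but 10 photoreceptor and retinal pigment markers summed to 0.659 to 1.32 FPKM per library, against 5775 to 10305 FPKM for 15 macrophage markers. Metrnl itself was read at 93.5, 63.2 and 69.8 FPKM in WT and at 51.2, 63.6 and 62.8 FPKM in KO (limma adjusted p = 0.181). Its RNA was thus present in the libraries labelled KO, and since the deleted part is not given, this level checks no label. WT and KO below are the genotypes as labelled.

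Depth was 11026529 to 15724897 reads in genes per library. In each genotype, the library with replicate number 1 stood apart: a chi-square per degree of freedom of 39.6 to 59.4 separated it from the other two, which differed from each other by 7.10 in WT and by 2.30 in KO. The sum of FPKM over all genes ran from 311409 (WT1) to 412048 (KO1), so the scale of the deposited values also differed between those 2 libraries.

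Most soluble lysosomal enzymes are made in the endoplasmic reticulum, tagged with mannose 6-phosphate and carried to the lysosome by receptors, while LAMP proteins and channels form its membrane. Many of their genes share a short E-box element, CACGTG with flanking bases, which is bound by the MiT/TFE factors TFEB, TFE3 and MITF. In macrophages this set is known for its part in the killing and digestion of phagocytosed microbes, antigen processing and lipid turnover.

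Promoter windows of 300 bases, from 250 before to 50 after the transcription start (RefSeq, GRCm38.p6), were found for 37 of the 41 genes as 40 windows. Ctsh, Asah1, Ctsb and Npc1 had no entry. The hexamer CACGTG, which reads the same on both strands, was in 12 of the 40 windows (30%), against 7.15% of all 32851 windows. TCACGTG, searched on both strands and containing the hexamer, was in 11 member windows (27.5%) and in 3.77% of all windows. The longer palindrome TCACGTGA was in 4 member windows (10%) and in 0.974% of all windows, those of Ctsa, Ctsd, Gla and Mcoln1. A match is a description of the letters only.

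The stretches below are shown because each holds a CACGTG hexamer, in capitals, and belongs to a gene described later. They run 5′ to 3′ on the strand of the gene.
Lamp1: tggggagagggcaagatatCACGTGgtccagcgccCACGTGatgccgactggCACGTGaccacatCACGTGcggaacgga
Lgmn: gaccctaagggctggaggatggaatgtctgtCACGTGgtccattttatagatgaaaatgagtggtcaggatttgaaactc
Glb1: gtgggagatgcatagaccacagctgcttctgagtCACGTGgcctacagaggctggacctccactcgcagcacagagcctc
Gaa: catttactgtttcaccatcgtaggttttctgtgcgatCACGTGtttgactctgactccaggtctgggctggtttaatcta
Arsa: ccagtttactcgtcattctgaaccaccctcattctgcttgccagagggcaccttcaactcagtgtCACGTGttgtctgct
Ctsa: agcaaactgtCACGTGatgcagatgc
Ctsd: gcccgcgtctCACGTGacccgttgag
Naglu: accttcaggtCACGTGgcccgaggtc
Ctsl: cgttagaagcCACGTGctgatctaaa
Mcoln1: gcgccccgctCACGTGaccgcggcgc
Sgsh: gcctgccgtgCACGTGaccgtgggga

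The Lamp1 stretch (chr8:13159081-13159160, plus strand) held 4 hexamers within the 80 bases before the start. Those of Lgmn (chr12:102439093-102439172, minus), Glb1 (chr9:114400996-114401075, plus), Gaa (chr11:119267786-119267865, plus) and Arsa (chr15:89477426-89477505, minus) held 1 each. None of these 5 stretches overlapped an annotated exon. The Lgmn stretch lay inside the gene span of the expression table, which reaches 102439813. The 26-base sites lay at chr2:164833751-164833776 (Ctsa, plus), chr7:142387910-142387935 (Ctsd, minus), chr11:101070011-101070036 (Naglu, plus), chr13:64370741-64370766 (Ctsl, minus), chr8:3500464-3500489 (Mcoln1, plus) and chr11:119355524-119355549 (Sgsh, minus). Annotated exon sequence covered the Ctsa, Ctsd and Mcoln1 sites whole, 25 bases of the Naglu site and 13 bases each of the Ctsl and Sgsh sites. The windows of Ctsa, Ctsd and Mcoln1 held 2 hexamers each, of which the printed site holds 1. Gla, with 2 hexamers in its window, is described below, but its site is not printed. The KO minus WT differences given below had a median of 0.64 (log2) over the 12 genes with the hexamer and of 0.51 over the 25 without it. For TCACGTG the medians were 0.64 over the 11 genes with it and 0.52 over the 26 without. For TCACGTGA the order was the other way, 0.44 over the 4 genes with it and 0.56 over the 33 without. None of these medians was tested against another. The hexamer was present before genes at both ends of the range of response, Ctsl at the top and Sgsh and Mcoln1 near the bottom.

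Lysosomal genes were higher in KO macrophages than in WT in all 4 classes. Of the 41 genes, 34 were called higher, none lower and 7 neither way, by limma on log2(FPKM + 1) with an adjusted p below 0.05 over 11689 tested genes. Among all tested genes, 15.7% were called higher and 12.4% lower. The median difference over the 41 was 0.56 on the log2 scale, against 0.03 over all tested genes, and the ratio of mean FPKM ran from 1.00 to 1.95 with a median of 1.53. In 38 of the 41, every KO library lay above every WT library, which held for 25.7% of tested genes. At an unadjusted p below 0.05, limma had 37 higher and 0 lower, a threshold at which all tested genes were not counted. The voom fit, run on reads recovered from the FPKM, called 37 higher and 0 lower, against 17.1% of all tested genes called higher. Overlapping groups were seen for Ctsc, Lipa and Npc2.

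That count depended on the scale and on single libraries. Median-of-ratios factors, which set the median gene ratio alike in all libraries, left the counts at 34 higher and 0 lower. Among all genes they left 1833 higher and 1445 lower, as without them. The deposited values thus already carried scaling of this kind. The voom fit used such factors as well and gives no other view of the scale. In TPM, which sets every library to the same sum, 16 of the 41 were called higher and 0 lower, against 4.64% of all tested genes called higher. Centred on the 15 macrophage markers, 20 were called higher and 1 (Npc2) lower, against 5.77% of all tested genes called higher. The difference was above 0 for all 41 in deposited FPKM, for 40 in TPM (not Npc2), for 39 after quantile normalization (not Npc2 or Ctsc) and for 38 when centred (not Npc2, Ctsc or Sgsh). Without WT replicate 3, KO replicate 2 or KO replicate 3, the number called higher was 22, 19 or 20. The matching shares of all tested genes were 9.09%, 7.80% and 7.82%. Without WT replicate 2 the number was 26, against 9.98% of all tested genes called higher. After quantile normalization it was 22, against 14.5%. Among all genes, higher calls made up 55.9% of calls in FPKM, 31.8% in TPM and 18.5% when centred, and centring moved the median of all genes to -0.18. The median of the 41 exceeded the median of all tested genes by 0.53 in FPKM, by 0.56 in TPM and by 0.37 after quantile normalization. Centring shifts all genes of a library alike and so cannot change this gap. TPM multiplies all genes of a library by the same factor. It can change the gap only through the 1 added before the log, so it is no separate check. With 0.1 added in place of 1, the gap in FPKM was 0.57.

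12 genes were called higher as reported and in all 19 alternatives run: Ctsa, Ctsk, Ctsl, Lgmn, Tpp1, Gusb, Man2b1, Naglu, Neu1, Arsa, Asah1 and Grn. These are 5 proteases, 5 glycosidases and sulfatases, and 2 genes of the lipid class. None of the membrane proteins was among them. Each of the other called genes lost its call in some alternative. The same count was not made over all tested genes, so the 12 cannot be set against a share.

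**Figure D1:**
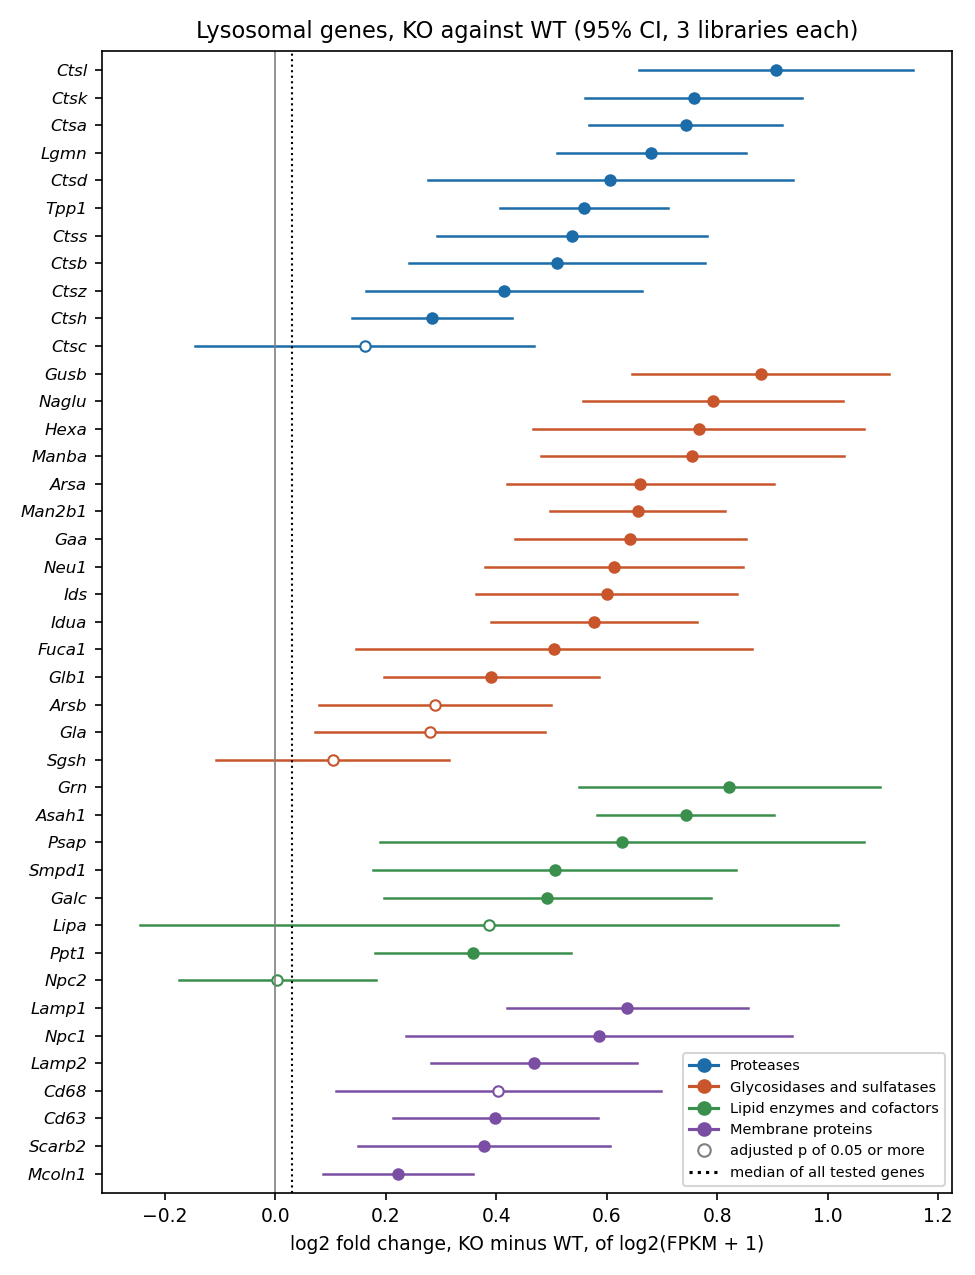
Difference between KO and WT on the log2(FPKM + 1) scale for each of the 41 lysosomal genes, with 95% confidence intervals from limma (3 libraries per group); open points have an adjusted p of 0.05 or more and the dotted line is the median of all tested genes (0.03). Ctsl (0.91) and Gusb (0.88) lay farthest right, and Npc2 (0.00) at 0; under TPM, quantile normalization or centring, Npc2 falls below 0, as do Ctsc and Sgsh when centred and Ctsc after quantile normalization.

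Proteases cut the proteins that reach the lysosome. Of the 11, 10 were called higher and Ctsc was not, with a median difference of 0.56 (log2). The number called was 6 without WT replicate 3 or in TPM, and 5 without KO replicate 2, without KO replicate 3 or after quantile normalization. Cathepsin L (Ctsl, ENSMUSG00000021477, chr13:64359337-64370890, minus strand), a cysteine endopeptidase, had the largest difference of the 41. Its level was 297, 238 and 276 FPKM in the 3 WT libraries and 492, 512 and 511 FPKM in the 3 KO libraries. The means were 270.0 ± 30.0 and 505 ± 11.2 FPKM (SD, n = 3), a ratio of 1.87. The log2 difference was 0.91 (SE 0.10, limma adjusted p = 0.00208). All 3 KO libraries were high and close together, and the lowest of them stood far above the highest WT library.

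Cathepsin S (Ctss), the endopeptidase that trims the invariant chain of MHC class II, had the highest level of the class. Its 1033, 917 and 1054 FPKM in WT compared with 1484, 1443 and 1427 FPKM in KO. The log2 difference was 0.54 (SE 0.10, limma adjusted p = 0.0119), with no overlap of the groups. Cathepsin D (Ctsd), an aspartic protease, and cathepsin B (Ctsb), a cysteine protease with exopeptidase activity, were at similar levels. Ctsd averaged 784 ± 118 FPKM in WT against 1187 ± 72.9 FPKM in KO (SD, n = 3), a log2 difference of 0.61 (limma adjusted p = 0.0212). Ctsb averaged 712 ± 79.3 FPKM and 1009.9 ± 22.5 FPKM, a log2 difference of 0.51 (limma adjusted p = 0.0188). Cathepsin Z (Ctsz), a carboxypeptidase, went from 658 ± 41.3 to 878 ± 70.2 FPKM (0.41, limma adjusted p = 0.0292). These 4 abundant cathepsins were all higher in KO, and each lost its call in 5 or more of the 19 alternatives.

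Other proteases were expressed at middle levels. Cathepsin A (Ctsa), a serine carboxypeptidase that also protects neuraminidase and beta-galactosidase, had 150.2, 135 and 144 FPKM in WT and 242, 240.4 and 238 FPKM in KO. Its log2 difference was 0.74 (SE 0.07, limma adjusted p = 0.00127). Legumain (Lgmn), an asparaginyl endopeptidase that processes cathepsins, averaged 146 ± 6.83 FPKM in WT against 234 ± 4.66 FPKM in KO (SD, n = 3; 0.68, limma adjusted p = 0.00157). Both pairs of groups were separated by many times their SD. Cathepsin K (Ctsk), known for collagen breakdown in osteoclasts, went from 32.9 ± 2.996 to 56.1 ± 1.64 FPKM (0.76, limma adjusted p = 0.0018). Tripeptidyl peptidase 1 (Tpp1) went from 37.4 ± 1.42 to 55.6 ± 1.75 FPKM (0.56, limma adjusted p = 0.00203).

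The smallest differences of the class were those of the aminopeptidase cathepsin H (Ctsh) and the dipeptidyl peptidase cathepsin C (Ctsc), which activates serine proteases of granules. Ctsh had 27.9 ± 0.891 FPKM in WT against 34.2 ± 0.925 FPKM in KO (0.28, limma adjusted p = 0.0173), a call lost in 7 of the 19 alternatives. Ctsc was at 36.8, 45.1 and 44.3 FPKM in WT and at 55.1, 42.9 and 43.9 FPKM in KO. Its highest value was KO1 and its lowest WT1, while the other 4 libraries lay within 42.9 to 45.1 FPKM. The log2 difference of 0.16 (95% confidence interval -0.15 to 0.47, limma adjusted p = 0.39) did not pass the test, and was -0.04 without the 2 libraries numbered 1.

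**Figure D2:**
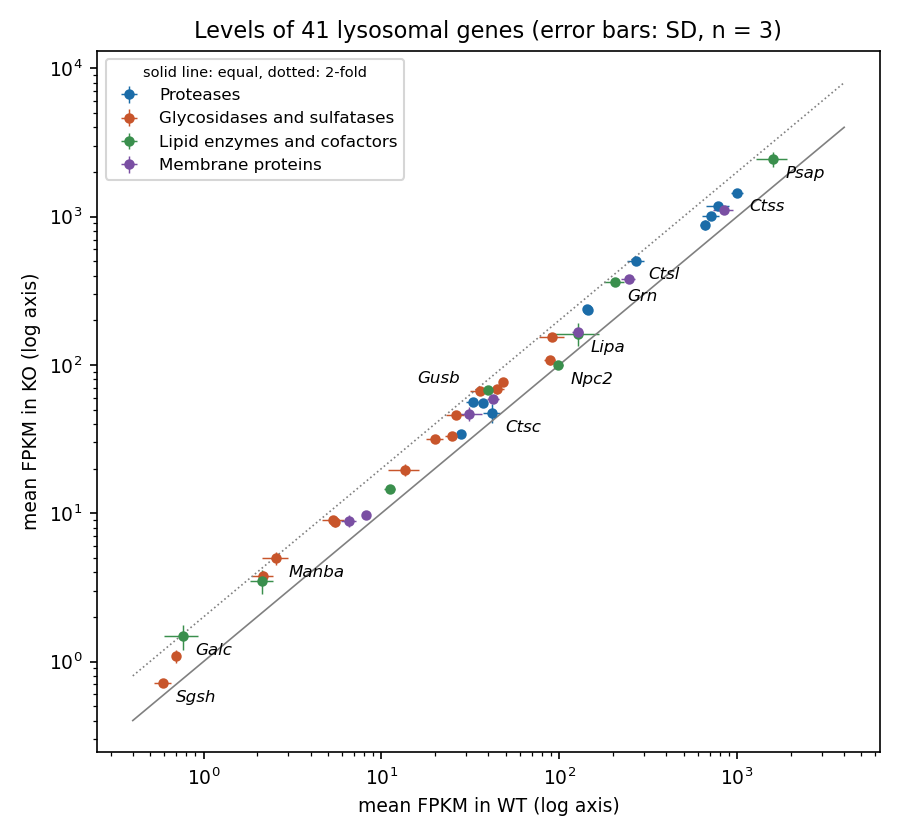
Mean FPKM in WT (horizontal, log axis) against mean FPKM in KO (vertical, log axis) for the 41 genes, coloured by class, with SD error bars (n = 3); the solid line marks equal levels and the dotted line a 2-fold higher KO mean. All points lie on or above the solid line and below the dotted one, from Sgsh (0.593 and 0.711 FPKM) to Psap (1596 and 2446 FPKM).

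Glycosidases and sulfatases remove sugars and sulfate groups from glycoproteins, glycolipids and glycosaminoglycans. Of the 15, 12 were called higher, Gla, Sgsh and Arsb were not, and the median log2 difference was 0.61. Leaving out any library left 10 to 12 called, and TPM left 7. In all 15, the KO libraries lay above the WT libraries in FPKM. The largest difference was that of beta-glucuronidase (Gusb, ENSMUSG00000025534, chr5:129989011-130003049, minus strand), which acts on glycosaminoglycans. Gusb had 40.0, 31.6 and 35.9 FPKM in WT and 63.5, 68.1 and 67.7 FPKM in KO. The ratio of means was 1.85 and the log2 difference 0.88 (SE 0.10, limma adjusted p = 0.00187). Every KO library exceeded 1.5 times the highest WT library.

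The alpha subunit of beta-hexosaminidase (Hexa), which degrades GM2 ganglioside, was the most abundant of the class. Its values were 105, 76.6 and 92.7 FPKM in WT and 147, 163 and 156 FPKM in KO (0.77, SE 0.12, limma adjusted p = 0.00719). WT2 was the lowest library here, as for most of the 41 genes. Enzymes of heparan and dermatan sulfate breakdown were among those called. Naglu, an alpha-N-acetylglucosaminidase, went from 26.1 ± 3.09 to 45.8 ± 1.78 FPKM (SD, n = 3; 0.79, limma adjusted p = 0.00277). The iduronidase gene Idua went from 5.52 ± 0.279 to 8.73 ± 0.674 FPKM (0.58, limma adjusted p = 0.00385). Its partner in that breakdown, the iduronate sulfatase Ids, went from 2.16 ± 0.294 to 3.77 ± 0.296 FPKM (0.60, limma adjusted p = 0.00745).

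Mannose is removed from glycoprotein sugars by the alpha-mannosidase Man2b1 and the beta-mannosidase Manba. Man2b1 averaged 48.3 ± 2.37 FPKM in WT against 76.7 ± 1.79 FPKM in KO (SD, n = 3; 0.66, limma adjusted p = 0.0014). Manba was at 3.04, 2.23 and 2.40 FPKM in WT and at 4.41, 5.34 and 5.22 FPKM in KO, a ratio of means of 1.95 and a log2 difference of 0.75 (limma adjusted p = 0.00569). That ratio was the highest of the 41, while the log2 difference, which the added pseudocount of 1 FPKM shrinks at low levels, ranked below those of Gusb, Naglu and Hexa. Neuraminidase 1 (Neu1), which removes sialic acid, went from 44.4 ± 4.36 to 68.4 ± 5.12 FPKM (0.61, limma adjusted p = 0.00672). The glycogen-degrading alpha-glucosidase Gaa went from 20.02 ± 2.16 to 31.7 ± 0.848 FPKM (0.64, limma adjusted p = 0.00395).

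Arylsulfatase A (Arsa), which removes sulfate from sulfatides, had 6.07, 4.55 and 5.51 FPKM in WT and 9.28, 8.80 and 9.01 FPKM in KO (0.66, limma adjusted p = 0.00581). Beta-galactosidase (Glb1) went from 24.99 ± 2.07 to 33.0 ± 1.40 FPKM (SD, n = 3; 0.39, limma adjusted p = 0.0157). The fucosidase Fuca1 went from 13.6 ± 2.73 to 19.6 ± 1.88 FPKM (0.51, limma adjusted p = 0.0483), and its KO1 value of 17.7 FPKM was little above its WT1 value of 16.4 FPKM. Fuca1 lost its call in 11 of the 19 alternatives.

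The 3 enzymes of the class that did not pass the test were of differing abundance. Alpha-galactosidase (Gla), which degrades globotriaosylceramide, had 91.6, 81.2 and 92.0 FPKM in WT and 116, 103 and 103 FPKM in KO (0.28, 95% confidence interval 0.07 to 0.49, limma adjusted p = 0.0554). Arylsulfatase B (Arsb) had 0.733, 0.718 and 0.662 FPKM in WT and 0.958, 1.14 and 1.15 FPKM in KO (0.29, 0.08 to 0.50, limma adjusted p = 0.0513). The sulfamidase gene Sgsh, of heparan sulfate breakdown, had 0.608, 0.520 and 0.652 FPKM in WT and 0.691, 0.718 and 0.726 FPKM in KO (0.10, -0.11 to 0.32, limma adjusted p = 0.421). Gla and Arsb missed the threshold narrowly, without overlap of the groups. Sgsh rested on 27 to 50 reads per library, the fewest of the 41.

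**Figure D3:**
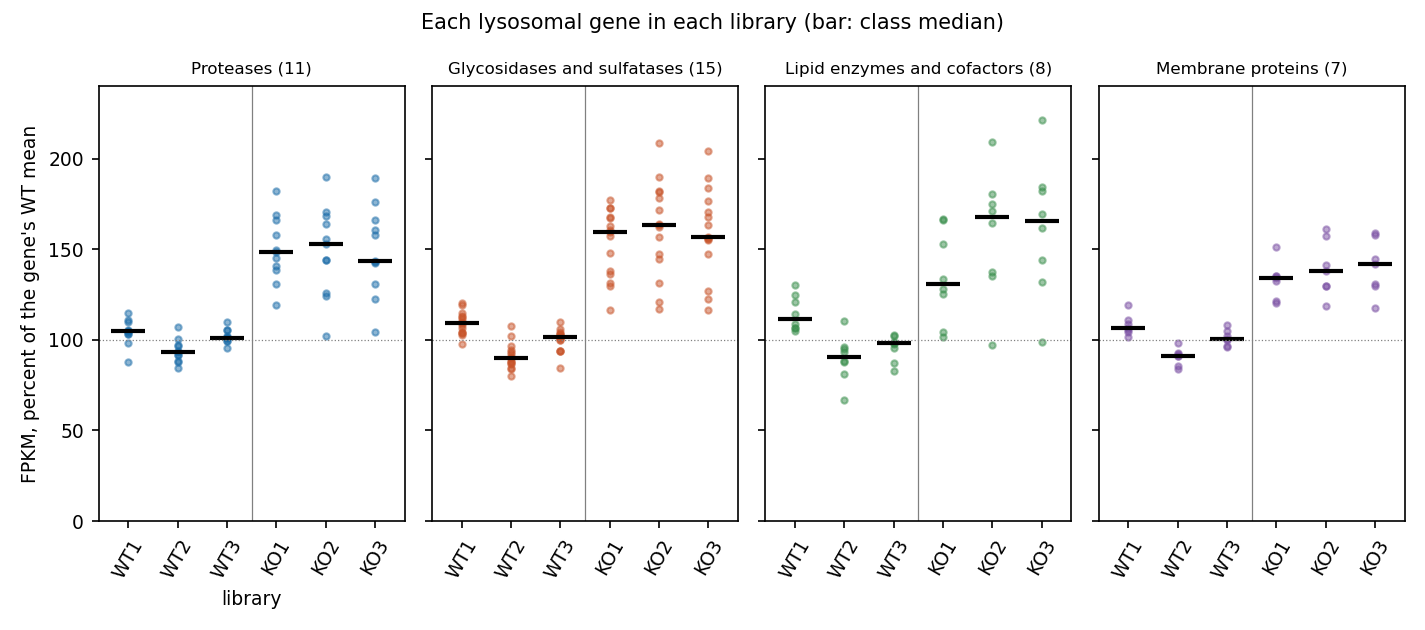
Level of each gene in each library as a percent of that gene's WT mean, in 1 panel per class (11, 15, 8 and 7 genes), with points for genes and black bars for class medians. Over all 41 genes the median was 107%, 91.6% and 101% in WT1, WT2 and WT3 and 145%, 157% and 156% in KO1, KO2 and KO3; in the lipid class the KO1 median (131%) was the lowest of the KO libraries.

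The lipid class ran from a log2 difference of 0.00 (Npc2) to 0.82 (Grn). Of its 8 genes, 6 were called higher, Lipa and Npc2 were not, and the median log2 difference was 0.50. The number called was 3 without WT replicate 2, and 2 without WT replicate 3, without KO replicate 2, without KO replicate 3 or in TPM. Prosaposin (Psap, ENSMUSG00000004207, chr10:60277627-60302597, plus strand), the precursor of the saposins that present sphingolipids to their hydrolases, had the highest level of the 41. Its values were 1928, 1291 and 1569 FPKM in WT and 2128, 2628 and 2581 FPKM in KO. The log2 difference was 0.63 (SE 0.18, limma adjusted p = 0.0458). KO1 was only a little above WT1, and the call was lost in 9 of the 19 alternatives.

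Progranulin (Grn, ENSMUSG00000034708, chr11:102430315-102437048, plus strand), a secreted and lysosomal glycoprotein that binds prosaposin, had the largest difference of the class. It was at 233, 180.1 and 200.02 FPKM in WT and at 340.1, 369 and 373 FPKM in KO (0.82, SE 0.11, limma adjusted p = 0.00417). Acid ceramidase (Asah1) had 42.5, 38.0 and 39.4 FPKM in WT and 66.5, 68.2 and 67.6 FPKM in KO (0.74, SE 0.07, limma adjusted p = 0.000955). That adjusted p was the smallest of the 41 genes, with KO values within 2 FPKM of each other. Acid sphingomyelinase (Smpd1), the enzyme that makes the ceramide on which acid ceramidase acts, went from 2.14 ± 0.322 to 3.47 ± 0.642 FPKM (SD, n = 3; 0.51, limma adjusted p = 0.0368). Galactosylceramidase (Galc) was low, at 0.951, 0.668 and 0.666 FPKM in WT and 1.17, 1.59 and 1.69 FPKM in KO (0.49, limma adjusted p = 0.029). Smpd1 lost its call in 9 of the 19 alternatives, and Galc in 8 of the 18 that tested it. The thioesterase Ppt1, which removes palmitate from proteins, went from 11.1 ± 0.820 to 14.5 ± 0.558 FPKM (0.36, limma adjusted p = 0.0155). Its call was lost in 6 of the 19 alternatives. The span of Ppt1 is overlapped on the other strand by Cap1, at a mean of 245 FPKM, and whether reads were counted by strand is not given in the sources used here.

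Lysosomal acid lipase (Lipa), which frees cholesterol from its esters, had 166, 84.9 and 131 FPKM in WT and 129, 175 and 183 FPKM in KO (0.39, 95% confidence interval -0.24 to 1.02, limma adjusted p = 0.318). Its WT values spread about as widely as the gap between the groups, and KO1 lay below WT1 and WT3. Npc2, the soluble carrier that hands cholesterol to Npc1, had 104, 92.3 and 101 FPKM in WT and 103, 96.4 and 98.1 FPKM in KO. Its log2 difference was 0.00 (95% confidence interval -0.17 to 0.18, limma adjusted p = 0.978). This interval excludes the 0.56 median of the 41 genes. The membrane partner Npc1 had 37.2, 26.1 and 30.2 FPKM in WT and 41.2, 50.1 and 49.5 FPKM in KO (0.59, limma adjusted p = 0.0282), with all KO above all WT, though its call was lost in 9 of the 19 alternatives. The test of a difference between the responses of Npc1 and Npc2 was not made.

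Membrane proteins had the smallest class median, 0.40 (log2), with 6 of 7 called higher. The number called was 3 without WT replicate 2 or 3, 2 without KO replicate 2 or 3, and 1 in TPM or after quantile normalization. The major membrane glycoprotein Lamp1 (ENSMUSG00000031447, chr8:13159161-13175338, plus strand) had 266, 223 and 247 FPKM in WT and 371, 385 and 387 FPKM in KO. The ratio of means was 1.55 and the log2 difference 0.64 (SE 0.09, limma adjusted p = 0.00469), the largest of the class. Its relative Lamp2, which also serves in chaperone-mediated autophagy, went from 42.4 ± 3.24 to 58.9 ± 1.89 FPKM (SD, n = 3; 0.47, limma adjusted p = 0.00771). The tetraspanin Cd63 went from 127 ± 8.65 to 168 ± 3.92 FPKM (0.40, limma adjusted p = 0.0127). Scarb2, the receptor that carries glucocerebrosidase to the lysosome, went from 6.59 ± 0.636 to 8.86 ± 0.791 FPKM (0.38, limma adjusted p = 0.0292). Over the 19 alternatives, Scarb2 lost its call in 9 and Cd63 in 6.

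Cd68, a heavily glycosylated protein of macrophage lysosomes, was the most abundant of the class. It had 896, 718 and 911 FPKM in WT and 1139, 1093 and 1091 FPKM in KO (0.40, 95% confidence interval 0.11 to 0.70, limma adjusted p = 0.0521). The groups did not overlap, and the test was missed narrowly. Mcoln1, the lysosomal calcium channel TRPML1, had 8.27, 8.03 and 8.16 FPKM in WT and 9.79, 9.67 and 9.58 FPKM in KO (0.22, SE 0.06, limma adjusted p = 0.0299). This was the smallest difference among the 34 called, and it passed on the closeness of its libraries. It lost its call in 10 of the 19 alternatives.

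Many of the 41 genes ranked the libraries of a genotype in the same order, more so in WT than in KO. WT2 was the lowest WT library for 34 genes and WT1 the highest for 32. KO1 was the lowest KO library for 26 and the highest for 13. This order was not counted over all tested genes. Together the 41 genes made up 2.72%, 1.96% and 2.13% of all FPKM in WT1, WT2 and WT3 and 2.65%, 3.42% and 3.42% in KO1, KO2 and KO3. By this share KO1 was below WT1, while KO2 and KO3 were above all 3 WT libraries. In TPM, 20 of the 41 had every KO library above every WT library, against 12.0% of tested genes. KO1 was at or below WT1 for 20 genes in TPM, and KO2 and KO3 both exceeded all WT libraries for 38. These counts were not made over all tested genes, so neither can be set against a share. With both libraries numbered 1 left out, 34 were called higher in FPKM and the median difference was 0.66 (log2). In that fit 19.3% of all tested genes were called higher, more than with all 6 libraries.

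Markers of other cells moved with genotype too. All 13 tested B cell markers were called lower, and the list of 14 summed to 606 to 785 FPKM in WT and 27.5 to 37.6 FPKM in KO. Ighm fell from a mean of 271 to 10.6 FPKM, Igkc from 260.1 to 10.9 FPKM and Cd79a from 49.2 to 3.21 FPKM. In bulk RNA, fewer cells of a type and less RNA per cell cannot be told apart. The 15 macrophage markers summed to 5775 to 6485 FPKM in WT and 9273 to 10305 FPKM in KO. Of these, 5 were called higher and 1 (Fcgr1) lower, with a median log2 difference of 0.32. Lyz2, lysozyme, had 2598, 1803 and 2211 FPKM in WT and 4197, 4528 and 4567 FPKM in KO (1.02, limma adjusted p = 0.00719). Cd14 averaged 1799.7 and 2674 FPKM (limma adjusted p = 0.0755) and Fcer1g 547 and 583 FPKM (limma adjusted p = 0.682). As a percent of the WT mean, the median macrophage marker stood at 141%, 126% and 119% in KO1, KO2 and KO3, and the median lysosomal gene at 145%, 157% and 156%. The part of these marker changes in the lysosomal differences was not tested.

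Dendritic cell markers had 6 of 9 called lower and summed to 194 to 276 FPKM in WT and 92.7 to 106 FPKM in KO, with Ccl22 at means of 67.4 and 16.8, Fscn1 at 64.1 and 11.8, and Itgax, not called, at 41.4 and 50.02 FPKM. Neutrophil markers had 3 of 10 called lower (975 to 1301 against 725 to 833 FPKM), with S100a8 at 734 and 361, Mmp8 at 60.3 and 24.97, and S100a9, not called, at 297 and 304 FPKM. T and NK cell markers had 5 of 6 called lower and Il7r higher, at 48.7 and 78.1 FPKM, while Trac and Trbc2 were at 3.63 and 3.72 FPKM in WT and 1.26 and 0.836 FPKM in KO. Mast cell markers (4 of 4 lower, Tpsb2, Cma1 and Cpa3 among them) and fibroblast or mesothelial markers (4 of 7 lower, Sparc and Col1a1 among them, Dcn not) summed to at most 18.7 FPKM. Of the osteoclast markers, relevant beside Ctsk, Oscar had no read in any library, Nfatc1 was lower (12.5 and 3.44 FPKM), and Dcstamp and Mmp9 were not called. Acp5, also a marker of osteoclasts but counted with the further hydrolases below, was called higher (35.3 and 66.8 FPKM, limma adjusted p = 0.0197).

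Other genes of the pathway were counted from lists that do not hold the 41, read against the 15.7% higher and 12.4% lower of all tested genes. Counts from fits without a library belong beside the share called higher in that fit, given above. Of 26 tested further soluble hydrolases and their activators, 16 were called higher and 1 lower, and 9 higher without WT replicate 3 or KO replicate 3. Gm2a, the activator that lifts GM2 ganglioside to hexosaminidase, had 44.5, 38.2 and 41.6 FPKM in WT and 74.0, 77.9 and 75.8 FPKM in KO (0.86, limma adjusted p = 0.000898). This difference was of the size seen for Hexa (0.77). Dpp7, a dipeptidyl peptidase, went from 22.0 to 35.2 FPKM and Naaa, an acid amidase, from 4.70 to 7.97 FPKM. Plbd1, a phospholipase B-like protein, was the lower one, from 19.4 to 10.6 FPKM (limma adjusted p = 0.00883).

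Among 24 tested further membrane proteins, 13 were called higher and 1 lower, and 8 higher and 0 lower without KO replicate 2 or 3. The cation channel Tpcn2 had 12.8, 12.0 and 10.8 FPKM in WT and 22.2, 25.6 and 24.1 FPKM in KO (0.95, limma adjusted p = 0.001). Tmem106b went from 1.92 to 3.52 FPKM, the transporter Spns1 from 14.2 to 24.3 FPKM and the cobalamin export protein Lmbrd1 from 24.4 to 35.1 FPKM. Cd164, a sialomucin, went from 59.0 to 42.6 FPKM (limma adjusted p = 0.0329). Of 18 tested genes of enzyme modification and sorting, 11 were called higher and 0 lower (0 lower also at an unadjusted p below 0.05 and with voom). Without WT replicate 2, WT replicate 3, KO replicate 2 or KO replicate 3, the number higher was 6, 5, 4 or 5. The matching shares of all tested genes were 9.98%, 9.09%, 7.80% and 7.82%. Nagpa, the uncovering enzyme that exposes the mannose 6-phosphate tag, went from 9.17 to 15.2 FPKM, and Gnptg, a subunit of the phosphotransferase that adds it, from 5.21 to 7.33 FPKM. Sumf1, which activates all sulfatases by modifying their active site, went from 6.27 to 11.7 FPKM (0.81, limma adjusted p = 0.00603). Cln8, which helps carry enzymes out of the endoplasmic reticulum, went from 12.2 to 22.2 FPKM (0.81, limma adjusted p = 0.00098). In TPM the numbers called higher fell to 6 hydrolases, 6 membrane proteins and 3 sorting genes.

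**Figure D4:**
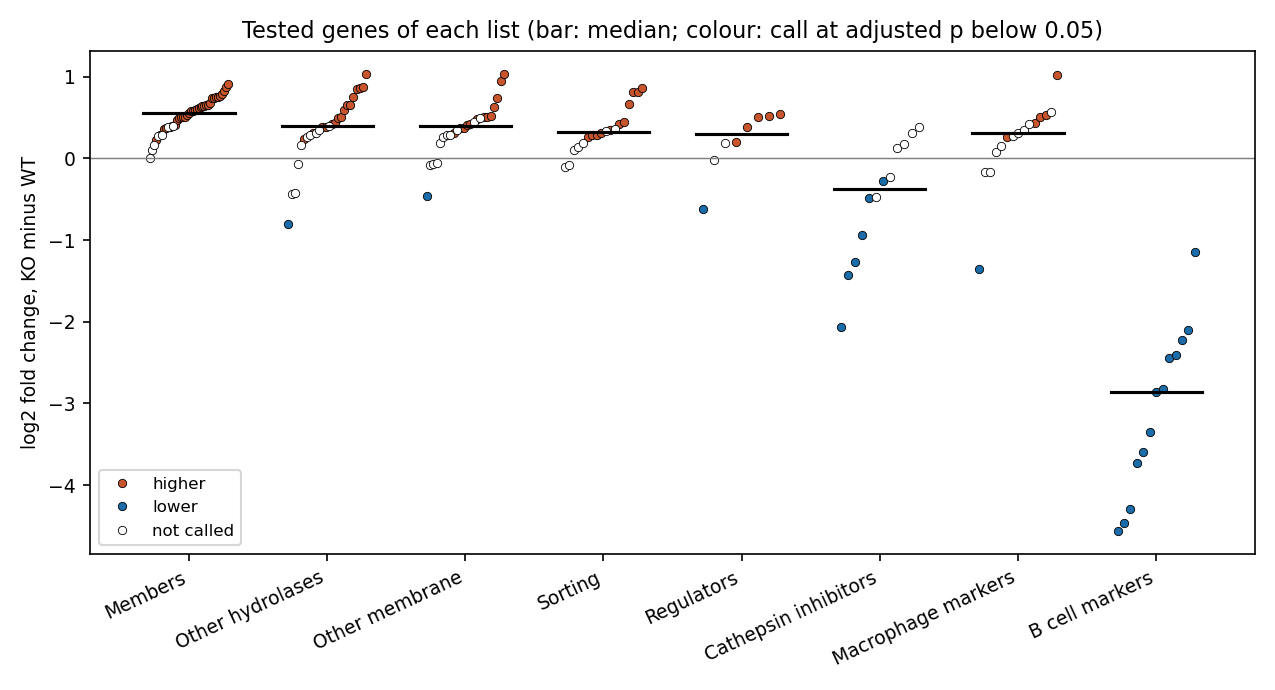
Difference between KO and WT (log2 scale, vertical) for every tested gene of 8 lists, each list sorted by value, with bars for list medians and colour for the call at an adjusted p below 0.05. The 41 lysosomal genes had a median of 0.56, further hydrolases and membrane proteins 0.40 each and sorting genes 0.33. The list marked cathepsin inhibitors, which joins cystatins, stefins and serpins, had -0.37, and B cell markers had -2.86. These medians keep their sign in TPM, after quantile normalization and when centred.

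The MiT/TFE factors, which bind the E-box shown above, were themselves divided. Tfeb was called lower, with 2.89, 2.34 and 2.44 FPKM in WT and 1.17, 1.37 and 1.37 FPKM in KO (-0.62, SE 0.09, limma adjusted p = 0.00541). Mitf was called higher, with 5.90, 4.19 and 6.05 FPKM in WT and 8.07, 8.497 and 8.16 FPKM in KO (0.55, limma adjusted p = 0.0228). Tfe3 was called higher by a small margin, with 8.96, 8.94 and 9.04 FPKM in WT and 10.7, 10.2 and 10.6 FPKM in KO (0.21, limma adjusted p = 0.0386). Its call was lost in each fit without 1 library (limma adjusted p from 0.0742 to 0.135), and centred on macrophage markers its difference was -0.00781. No overlap was seen for these 3, with Tfeb alone below its WT range. Tfec had 7.28, 8.61 and 9.497 FPKM in WT and 10.5, 7.19 and 7.47 FPKM in KO (limma adjusted p = 0.935). The zinc finger repressor Zkscan3 had 3.68, 3.69 and 3.06 FPKM in WT and 3.81, 4.38 and 4.13 FPKM in KO (limma adjusted p = 0.155).

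Folliculin and its partners act on the lysosome surface and keep TFEB and TFE3 in the cytoplasm. Flcn had 29.3, 25.6 and 24.1 FPKM in WT and 38.5, 37.3 and 37.8 FPKM in KO (0.51, limma adjusted p = 0.0075). Fnip1 had 27.8, 27.1 and 27.3 FPKM in WT and 37.5, 41.2 and 40.99 FPKM in KO (0.53, limma adjusted p = 0.00273). Fnip2 had 62.4, 65.8 and 63.0 FPKM in WT and 87.5, 82.8 and 80.5 FPKM in KO (0.39, limma adjusted p = 0.00846). All 3 were called higher, without overlap. In TPM the call of Tfeb was kept (limma adjusted p = 0.0223) and those of Mitf, Tfe3, Flcn, Fnip1 and Fnip2 were not, with log2 differences of 0.52, 0.14, 0.44, 0.45 and 0.30. Without KO replicate 2 or 3, the call of Mitf was lost as well (limma adjusted p = 0.0792 and 0.0711). These are RNA levels, and the position of the factors in the cell was not measured.

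A list that joins cystatins and stefins with serpins had a median log2 difference of -0.37. Of 12 tested cystatins, stefins and serpins, limma called 0 higher and 6 lower, and 3 lower without KO replicate 2 or KO replicate 3. At an unadjusted p below 0.05, 1 was higher, voom called 0 higher, and quantile normalization had 1 called higher. Serpinb9, an inhibitor of granzyme B, had 13.4, 17.7 and 19.4 FPKM in WT and 5.75, 5.98 and 4.98 FPKM in KO (-1.43, limma adjusted p = 0.00137). Serpina3f had 10.5, 8.75 and 10.99 FPKM in WT and 3.04, 0.996 and 1.25 FPKM in KO (-2.07, limma adjusted p = 0.00332). Stfa3 went from 41.8 to 21.3 FPKM and Stfa2l1 from 34.9 to 24.7 FPKM. The stefin A and Serpina3 genes have near-identical copies, so the division of reads among them is uncertain. Serpina3g and Serpinb6a were the remaining lower calls, so the lower calls were serpins apart from Stfa3 and Stfa2l1. Log2 differences of the tested cystatins and stefins went both ways. They were above 0 for BC100530 (0.38), Stfa2 (0.31), Cst3 (0.17) and Cstb (0.13). Those of Cst7 (-0.23), Stfa1 (-0.48), Stfa2l1 (-0.48) and Stfa3 (-0.94) were below 0. The most abundant inhibitors did not pass the test, Cstb at 828 and 905 FPKM (limma adjusted p = 0.459) and Cst3 at 347 and 391 FPKM (limma adjusted p = 0.179); these 2 were chosen after their values were seen.

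**Figure D5:**
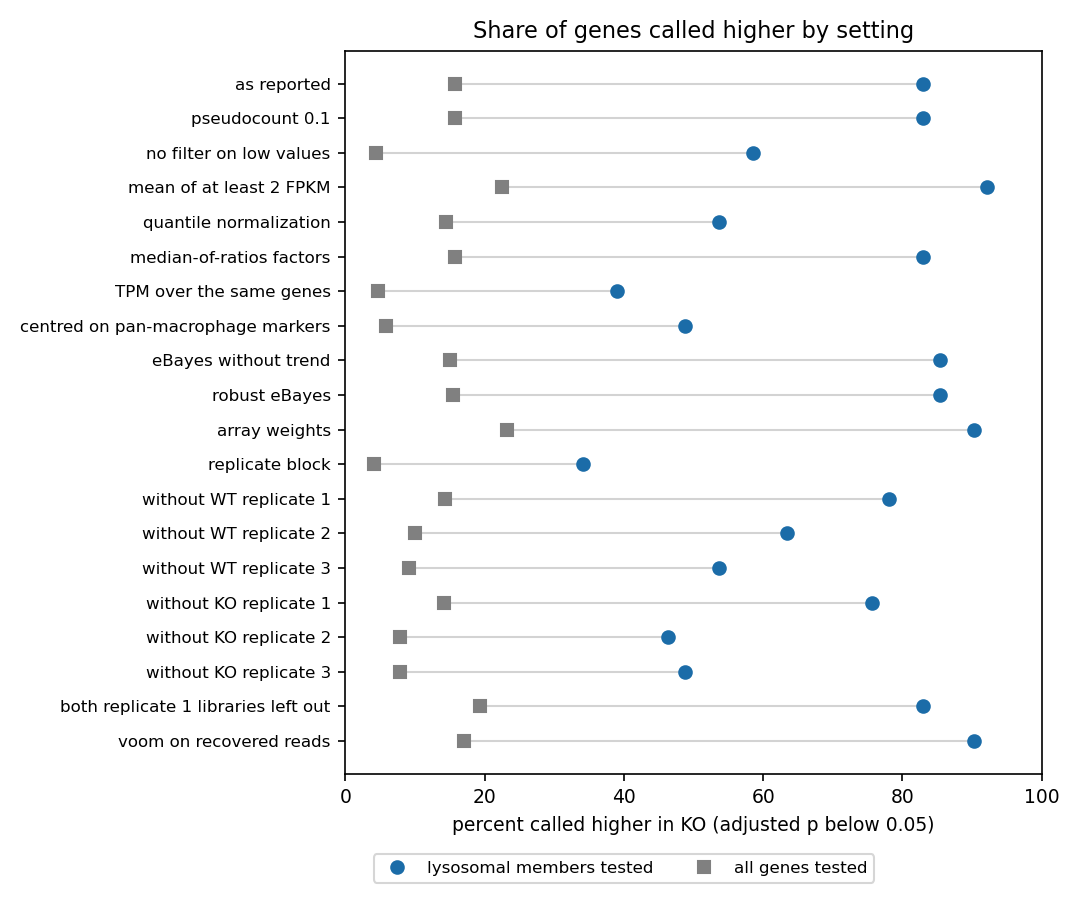
Percent of genes called higher in KO under the reported setting and each of 19 alternatives, for the lysosomal genes tested (circles) and for all genes tested (squares). The lysosomal count ran from 14 of 41 to 37 of 41 (35 of 38 with the stricter filter), and the circle lay to the right of the square at every setting.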

How the data were processed

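RNA libraries were made with a TruSeq kit from total RNA, per the labels' protocols. The deposited table holds FPKM per gene as the authors computed them. The submitters' processing notes name GRCm38 and mm10. No aligner, counter, strand setting or annotation version is named there (not given in the sources used here). Multiplied by gene length, 100% of a library's FPKM values fell on whole steps (within 0.05 step), which gave the reads per gene used for depth. Samples were grouped by title (3 WT, 3 KO). The 11689 of 54532 genes averaging 0.5 FPKM or more were fitted as log2(FPKM + 1) with limma 3.58.1 in R 4.3.3 (eBayes with trend), KO minus WT. Adjustment was Benjamini-Hochberg over all tested genes, with a threshold of 0.05, two-sided. All 41 genes passed the filter. Fold changes of low genes are understated by the pseudocount. Scripts were tested on simulated data. No per-sample column was left out.

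Values in every library are given for the most abundant gene, and the largest and smallest difference, of each class, for genes not called or overlapping, and for a few chosen afterwards. Every tested cystatin and stefin is named. Of pathway lists, up to 4 called genes with the smallest p in each direction are named, and every regulator. A gene that this rule names is not reported here. Of marker lists, the 3 most abundant genes and those at 0 are named. The genes and lists were chosen with earlier results of these data known. Promoter sequences are from RefSeq (GRCm38.p6). Of the 41 gene spans, 20 are overlapped by another gene, 17 of them on the other strand and 10 by a tested gene.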

Additional observations from a re-analysis of the deposited data

How the results depend on the processing

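Of 776 recomputed differences of single genes, 624 kept their direction and side of the threshold, 130 lost a call, 12 gained one and 10 changed sign, in 3 genes. Ctsc was -0.000105 after quantile normalization, -0.0535 centred on macrophage markers and -0.0416 without both replicate 1 libraries. Sgsh was -0.11 when centred. Npc2 was -0.16 after quantile normalization, -0.0806 in TPM, -0.21 when centred (limma adjusted p = 0.0343), -0.0259 with array weights, -0.0454 without WT replicate 2 and -0.0241 without KO replicate 1 (0.0381 at most, without WT replicate 1). As reported, 34 lysosomal genes were called higher and 0 lower, of 1833 genes higher and 1445 lower in all. Quantile normalization gave 22 lysosomal genes higher, a median of 0.42, and 1693 genes higher in all (14.5% of those tested). TPM gave 16, with 542 genes higher in all. Centring gave 20 higher and 1 lower, a median of 0.34, and 675 genes higher and 2970 lower in all. A minimum mean of 2 FPKM left 876 genes lower in all, with fewer genes tested. Without both replicate 1 libraries the median was 0.66. Leaving out each library in turn gave 19 to 32 lysosomal genes higher, 912 to 1681 genes higher and 851 to 1337 lower in all, and medians of 0.48 to 0.60. Same-numbered libraries did not deviate in the same direction from their genotype's mean (correlations of -0.50, -0.19 and -0.16). For replicate 1 the negative value means that WT1 and KO1 moved in opposite directions across genes. The 10 genes with the most reads in a library held 10.5% of reads in WT1 and 10.6% in KO2 and KO3. In KO1, WT2 and WT3 they held 13.7%, 13.0% and 13.4%. What sets these libraries apart was not tested. With a replicate block, 14 lysosomal genes were called higher, and 479 genes higher and 604 lower in all. By class these were 5 proteases, 7 glycosidases and sulfatases, 2 lipid genes and 0 membrane proteins. Under the block 2 of the cystatins, stefins and serpins were called lower, and Tfeb was not (limma adjusted p = 0.0510). The voom fit was chosen after seeing the data. Planned edgeR and DESeq2 fits were not run, since the deposited unit is FPKM. Beyond the constructions named, the cause of these shifts was not tested. Depth limits Sgsh, Arsb and Smpd1 most, the 3 with the fewest reads.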
